A study of Mus musculus with 6 samples.

Results

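The 35 genes described here encode the voltage-gated calcium, sodium and potassium channels of neurons, with the hyperpolarization-activated (HCN) channels, and they were taken by symbol from a table of 29606 loci. All 35 symbols were found. RNA came from GFP-positive cells sorted from the ganglionic eminences (GEs) of E13.5 mouse embryos, an age at which interneurons migrate out of the GEs, and was depleted of ribosomal RNA before paired-end sequencing. The 3 CCP1 cKO libraries carried the genotype CCP1 lox/lox with the Dlx5,6 CRE GFP transgene, and the 3 CCP1 WT libraries carried CCP1 Wt/Wt with the same transgene, so that both groups express Cre. Labels give the strain MF1 and the age E13.5 for every library. Cre is driven by Dlx5/6 sequences, which mark the GABAergic lineage of the ventral forebrain, so that deletion of Ccp1 (Agtpbp1) is confined by design to cells that use this promoter. The comparison asks whether channel genes differ in RNA level in these sorted cells, labelled as interneurons, when Ccp1 is lost. Values are FPKM, fragments scaled by transcript length and by the number of mapped fragments, which allow levels to be compared between genes because they are divided by transcript length.

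Voltage-gated channels open a pore when the membrane potential changes. Calcium channels are built around a pore-forming subunit, which in the high-voltage-activated types has beta and alpha2delta subunits that bring it to the membrane. Sodium channels have a pore-forming subunit with small beta subunits, and potassium and HCN channels are built from separate pore-forming proteins. In migrating interneurons calcium transients accompany movement and pausing, while repetitive firing and the channels that sustain it belong largely to postnatal life.

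Agtpbp1 was lower in the CCP1 cKO libraries, at 9.68, 10.1 and 9.56 FPKM, against 20.01, 18.9 and 18.1 FPKM in CCP1 WT (log2 fold change -0.89, adjusted p = 0.00449 by limma). Only part of the gene is floxed in the study, while this FPKM covers the whole locus, so it does not measure how complete the deletion was. Leaving out CCP1 cKO replicate 3 ended that call (adjusted p = 0.0585), while the log2 fold change stayed at -0.88. The sum of FPKM per library ranged from 449103 to 521685 in CCP1 cKO and from 447510 to 542953 in CCP1 WT. From the step that a single fragment makes in values below 0.1 FPKM, relative depth ranged from 1 to 1.095 in CCP1 cKO and from 0.72 to 1.14 in CCP1 WT, and absolute depth is unknown. Markers of the GABAergic lineage summed to between 868.9 and 971.8 FPKM for CCP1 cKO and between 832.7 and 927.4 FPKM for CCP1 WT, over 9 genes. Radial glia markers (7 genes) summed to between 383.3 and 446.0 FPKM for CCP1 cKO and between 391.3 and 425.8 FPKM for CCP1 WT, and those of cycling cells (6 genes) to between 335.8 and 405.5 FPKM and between 362.6 and 410.7 FPKM, in the same order of genotypes. Markers of striatal projection neurons (7 genes) summed to between 157.4 and 168.3 FPKM for CCP1 cKO and between 162.1 and 184.7 FPKM for CCP1 WT. Of the 6 tested, 1 had an unadjusted p under 0.05, against 4.62% of all loci. This was Bcl11b, at 76.4 to 79.0 FPKM for CCP1 cKO and 81.4 to 93.0 FPKM for CCP1 WT (adjusted p = 0.976 by limma). Drd1a went the other way, at 1.41 to 1.53 FPKM for CCP1 cKO and 1.03 to 1.18 FPKM for CCP1 WT. Each CCP1 cKO library was thus below each WT library at 1 of the 6 (5.81% of all loci) and above at 1 (3.98%). The log2 fold change was below 0 at 4 of the 6 and above 0 at 2. Of the radial glia list, Vim and Sox2 averaged 173.3 and 168.6 FPKM over the 6 libraries, while Slc1a3 and Hes1 averaged 1.80 and 0.934 FPKM. Fabp7, Nes and Pax6 lay between, at 31.5, 17.3 and 15.3 FPKM. Markers listed for dividing cells, radial glia and projection neurons were thus present beside those of the labelled cell type, at unequal levels within a list. Markers of the cortical excitatory lineage (10 genes) summed to 35.03, 26.2 and 17.9 FPKM for replicates 1, 2 and 3 of CCP1 cKO and to 39.5, 45.5 and 11.3 FPKM for those of CCP1 WT, and all 10 were lowest in CCP1 WT replicate 3. The 6 endothelial markers summed to between 0.444 and 0.697 FPKM for CCP1 cKO and between 0.999 and 1.58 FPKM for CCP1 WT, ranges that did not overlap, and the 6 microglial markers to between 0.571 and 0.897 FPKM for CCP1 cKO and between 0.728 and 1.096 FPKM for CCP1 WT. None of these endothelial and microglial genes reached a mean of 1 FPKM. Red blood cell markers (4 genes) were higher and uneven. They summed to 30.8, 11.4 and 14.5 FPKM for replicates 1, 2 and 3 of CCP1 cKO and to 22.2, 33.0 and 18.3 FPKM for those of CCP1 WT. The part of any of these cell types in the results was not tested. In bulk RNA, fewer cells of a type and less RNA per cell cannot be told apart.

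Of the 35 channel genes, 32 had a mean of at least 1 FPKM over the 6 libraries, the level from which loci were tested, and 3 (Kcna1, Kcna2 and Kcnq5) lay below it. Of the 32, 8 stood at 10 FPKM or more, 11 between 5 and 10 FPKM and 13 between 1 and 5 FPKM. The 8 highest were Cacnb3, Cacna1h, Scn3b, Scn3a, Cacnb1, Hcn3, Kcnd3 and Cacna1b. Cacnb3 stood at the percentile 92.3 of the mean levels of the 13200 tested loci, Cacna1h at 74.9, and Hcn2, the lowest of the tested channel genes, at 3.77. In each class the gene with the highest mean was the same in both genotypes.

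**Figure D1:**
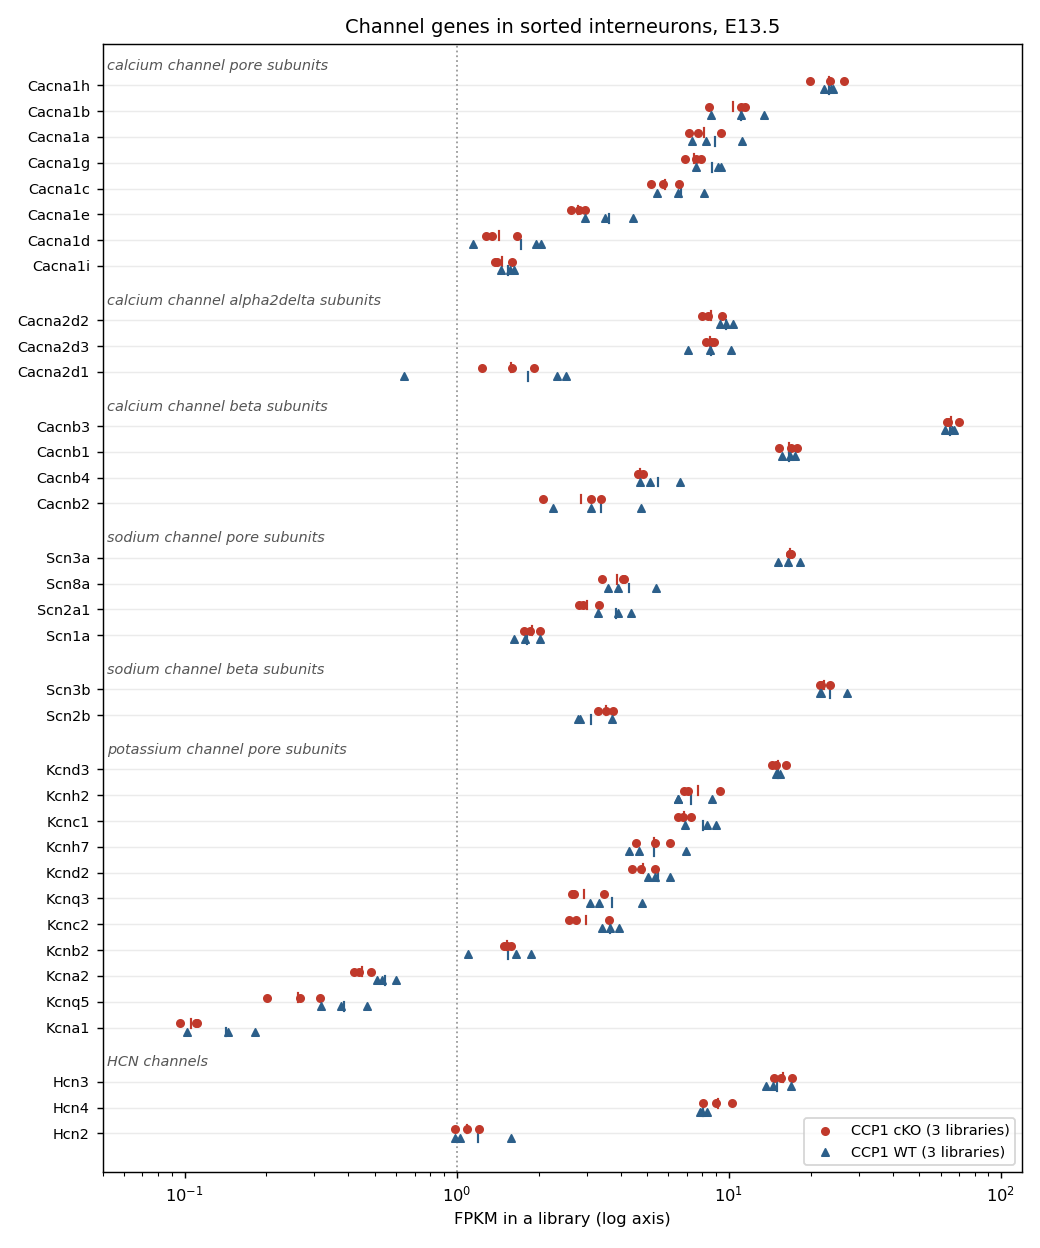
FPKM of the 35 channel genes by class on a log axis, with a circle for each CCP1 cKO library, a triangle for each CCP1 WT library, a short line at the mean of each genotype and a dotted line at 1 FPKM. Cacnb3 lies furthest right at 62.5 to 70.2 FPKM, all 6 libraries lie left of the dotted line at 3 potassium channel genes, and the genotypes overlap at 32 of the 35 genes.

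Promoter sequences are shown for 4 of the genes, which differ in level and in base composition. RefSeq windows of the GRCm38.p6 build, from 250 bases before to 50 bases after a transcription start, matched 26 of the 35 genes (40 windows). CpG dinucleotides were counted in them, on the strand of the gene, and are printed in capitals. For a gene with several windows, the one with the most CpG is shown. The other window held 7 CpG at Cacnb3 and 12 at Scn8a. Of these 26 genes, 20 (76.9%) had a window with at least 20 CpG, against 64.4% of the 7773 genes of tested loci that have a window. The 2 sets are not alike, since the 20 include Kcna2 and Kcnq5, which lay below 1 FPKM and were not among the tested loci. The 4 windows run from 5′ to 3′ and belong to the most abundant member, a sodium channel gene of middle level, a potassium channel gene below 1 FPKM and a sodium channel gene poor in CpG.
Cacnb3 (chr15:98634517-98634816, plus strand, 29 CpG): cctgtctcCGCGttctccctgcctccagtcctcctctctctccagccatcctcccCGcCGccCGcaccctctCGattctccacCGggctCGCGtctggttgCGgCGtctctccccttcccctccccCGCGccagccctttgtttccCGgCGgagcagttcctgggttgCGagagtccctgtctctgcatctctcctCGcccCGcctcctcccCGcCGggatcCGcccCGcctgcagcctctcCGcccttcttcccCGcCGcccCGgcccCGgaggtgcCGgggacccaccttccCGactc
Scn8a (chr15:100870395-100870694, plus strand, 38 CpG): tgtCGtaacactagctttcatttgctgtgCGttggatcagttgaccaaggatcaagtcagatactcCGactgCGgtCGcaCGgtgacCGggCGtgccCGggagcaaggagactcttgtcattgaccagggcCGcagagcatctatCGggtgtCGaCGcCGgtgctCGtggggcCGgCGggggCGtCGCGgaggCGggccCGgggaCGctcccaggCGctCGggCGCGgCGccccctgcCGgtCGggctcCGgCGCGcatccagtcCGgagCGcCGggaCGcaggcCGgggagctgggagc
Kcna2 (chr3:107101317-107101616, plus strand, 31 CpG): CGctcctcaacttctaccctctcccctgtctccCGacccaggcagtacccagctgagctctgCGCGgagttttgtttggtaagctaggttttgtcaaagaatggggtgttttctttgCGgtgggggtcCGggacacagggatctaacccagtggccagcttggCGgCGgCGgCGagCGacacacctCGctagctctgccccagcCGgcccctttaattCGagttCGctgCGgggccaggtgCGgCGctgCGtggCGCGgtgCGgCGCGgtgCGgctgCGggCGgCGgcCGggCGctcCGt
Scn1a (chr2:66440788-66441087, minus strand, 5 CpG): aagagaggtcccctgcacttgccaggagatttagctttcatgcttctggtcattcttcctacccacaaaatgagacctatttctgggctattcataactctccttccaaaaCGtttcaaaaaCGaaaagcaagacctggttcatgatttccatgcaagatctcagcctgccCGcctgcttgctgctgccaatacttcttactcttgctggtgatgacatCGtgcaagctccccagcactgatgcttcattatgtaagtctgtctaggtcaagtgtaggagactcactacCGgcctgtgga
The window of Kcna2 held more CpG than that of Cacnb3, while its mean level was 0.496 FPKM against 65.5 FPKM for Cacnb3. The 20 genes with at least 20 CpG had levels between 0.323 and 65.5 FPKM, with a median of 5.24 FPKM, and the 6 genes with fewer had levels between 1.85 and 7.49 FPKM, with a median of 3.33 FPKM. These counts describe the sequence alone, and no test was made on them.

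Among the pore-forming subunits of calcium channels, Cacna1h was the most abundant. This gene encodes a T-type channel, which opens at voltages near rest. Cacna1h had 19.9, 23.5 and 26.4 FPKM for replicates 1, 2 and 3 of CCP1 cKO, compared with 23.6, 24.1 and 22.4 FPKM for replicates 1, 2 and 3 of CCP1 WT. The CCP1 cKO libraries spread on both sides of the narrower WT range. Cacna1b, the N-type channel of presynaptic terminals, followed with 8.44, 11.5 and 11.1 FPKM among CCP1 cKO libraries, compared with 11.1, 13.45 and 8.64 FPKM among CCP1 WT libraries. Cacna1h exceeded Cacna1b between 1.79 and 2.60 times, in 6 of 6 libraries, and their ranges did not overlap. Cacna1a (P/Q-type) and Cacna1g (T-type) came next, at 8.07 ± 1.14 and 7.47 ± 0.493 FPKM for CCP1 cKO and 8.93 ± 2.04 and 8.67 ± 0.940 FPKM for CCP1 WT (SD, n = 3 each). Cacna1a exceeded Cacna1g in 4 of 6 libraries, so these neighbours did not differ beyond their spread. Cacna1c, an L-type channel, lay between 5.18 and 6.57 FPKM for CCP1 cKO and between 5.46 and 8.12 FPKM for CCP1 WT. Cacna1e, the R-type channel, ranked sixth of the 8, above Cacna1d, the other L-type gene, and Cacna1i, the third T-type gene, which had 1.43 ± 0.208 and 1.46 ± 0.119 FPKM for CCP1 cKO and 1.72 ± 0.496 and 1.54 ± 0.0860 FPKM for CCP1 WT. Cacna1d exceeded Cacna1i in 3 of 6 libraries. A locus opposite Cacna1d carried the same symbol at 0.680 to 3.25 FPKM, so the level of this gene is uncertain.

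By type, the 3 T-type genes held 53.0% ± 1.03 of the summed FPKM of the 8 pore genes in CCP1 cKO and 51.5% ± 3.78 in CCP1 WT (SD, n = 3 each). The P/Q-, N- and R-type genes held 34.97% ± 0.454 in CCP1 cKO and 35.8% ± 2.99 in CCP1 WT, and the L-type genes 11.99% ± 1.27 and 12.7% ± 1.16, in the same order of genotypes. The sum over the 8 genes was 53.7, 62.6 and 65.6 FPKM among CCP1 cKO libraries, compared with 64.8, 74.3 and 57.9 FPKM among CCP1 WT libraries. CCP1 WT replicate 2 was the highest library and CCP1 cKO replicate 1 the lowest, and the genotypes overlapped.

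Cacnb3 was the most abundant of all 35 channel genes. It encodes a beta subunit, a cytoplasmic protein that binds the pore subunits of high-voltage-activated calcium channels and carries them to the membrane, and it lies on chromosome 15 (98630727 to 98644568, mm10). It stood at 63.5, 63.8 and 70.2 FPKM among CCP1 cKO libraries, compared with 62.5, 66.1 and 67.1 FPKM among CCP1 WT libraries. Cacnb1, first known from skeletal muscle, had 17.8, 15.3 and 16.9 FPKM among CCP1 cKO libraries, compared with 17.5, 16.8 and 15.7 FPKM among CCP1 WT libraries. The genotypes overlapped at both genes. Cacnb3 exceeded Cacnb1 between 3.57 and 4.26 times, in 6 of 6 libraries, and held 73.0% ± 1.97 of the summed FPKM of the 4 beta genes in CCP1 cKO and 71.9% ± 2.49 in CCP1 WT. Cacnb4 had 4.72 ± 0.120 FPKM for CCP1 cKO and 5.50 ± 1.005 FPKM for CCP1 WT, and Cacnb2 2.87 ± 0.696 FPKM and 3.38 ± 1.27 FPKM (SD, n = 3 each). Cacnb4 was the higher of this pair in 6 of 6 libraries.

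The alpha2delta subunits, extracellular proteins that raise the number of calcium channels at the surface, were led by a pair of genes. Cacna2d2 had 7.99, 8.37 and 9.45 FPKM among CCP1 cKO libraries, compared with 10.4, 9.26 and 9.81 FPKM among CCP1 WT libraries. Only CCP1 cKO replicate 3 reached into the WT range. Cacna2d3 had 8.83, 8.24 and 8.59 FPKM among CCP1 cKO libraries, compared with 10.2, 8.50 and 7.05 FPKM among CCP1 WT libraries, and here the CCP1 cKO libraries lay inside the WT range. Cacna2d2 exceeded Cacna2d3 in 5 of 6 libraries by at most 1.39 times. Cacna2d1, which binds gabapentin, was lower than both in 6 of 6 libraries, and its libraries were the most variable of the 35 genes (coefficient of variation 41.1%), with 1.93, 1.59 and 1.24 FPKM among CCP1 cKO libraries, compared with 2.33, 2.52 and 0.640 FPKM among CCP1 WT libraries.

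Scn3a led the pore-forming subunits of sodium channels. The gene encodes the channel that is high in embryonic brain and declines after birth, while Scn1a, the channel of mature fast-spiking interneurons, Scn2a1 (now Scn2a) and Scn8a, which sit at the axon initial segment, rise later. Scn3a had 16.8, 16.9 and 16.9 FPKM among CCP1 cKO libraries, compared with 16.5, 18.3 and 15.1 FPKM among CCP1 WT libraries. The CCP1 cKO libraries were nearly equal and lay inside the WT range. Scn8a had 3.41, 4.12 and 4.08 FPKM among CCP1 cKO libraries, compared with 3.91, 5.40 and 3.61 FPKM among CCP1 WT libraries. Scn2a1 had 3.33, 2.83 and 2.90 FPKM among CCP1 cKO libraries, compared with 4.36, 3.91 and 3.30 FPKM among CCP1 WT libraries, where the genotypes met only at CCP1 cKO replicate 1 and CCP1 WT replicate 3. Scn1a lay between 1.77 and 2.02 FPKM for CCP1 cKO and between 1.62 and 2.03 FPKM for CCP1 WT.

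Scn3a held 65.7% ± 0.438 of the summed FPKM of the 4 sodium channel pore genes in CCP1 cKO and 62.6% ± 1.16 in CCP1 WT (SD, n = 3 each), and Scn2a1 11.8% ± 1.16 and 14.5% ± 1.67, in the same order of genotypes. The share of Scn3a was higher in each CCP1 cKO library (65.3% to 66.1%) than in any CCP1 WT library (61.7% to 63.9%), while its FPKM overlapped. The shares of Scn1a and Cacna2d3 in their classes were also higher in each CCP1 cKO library. Those of Scn2a1, Kcnc1 and Kcnq5 were lower in each. These are shares among chosen genes and were not tested, and how often shares part in this way elsewhere was not computed. Scn3a exceeded Scn1a between 8.33 and 9.51 times over the 6 libraries. These genes are neighbours on chromosome 2 of mm10, where the authors' loci place Scn3a from 65457118 to 65567518, Scn2a1 from 65620795 to 65767589 on the opposite strand, and Scn1a from 66270782 to 66440837, so their levels differed within one gene cluster. Scn8a lies apart from them on chromosome 15.

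Of the sodium channel beta subunits, which modulate gating and also act in cell adhesion, Scn3b was the more abundant. It had 23.6, 21.8 and 21.6 FPKM among CCP1 cKO libraries, compared with 27.3, 21.9 and 21.7 FPKM among CCP1 WT libraries. Scn2b had 3.30, 3.55 and 3.77 FPKM among CCP1 cKO libraries, compared with 2.84, 2.79 and 3.72 FPKM among CCP1 WT libraries. Scn3b exceeded Scn2b between 5.73 and 9.61 times, in 6 of 6 libraries, and the genotypes overlapped at both genes.

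**Figure D2:**
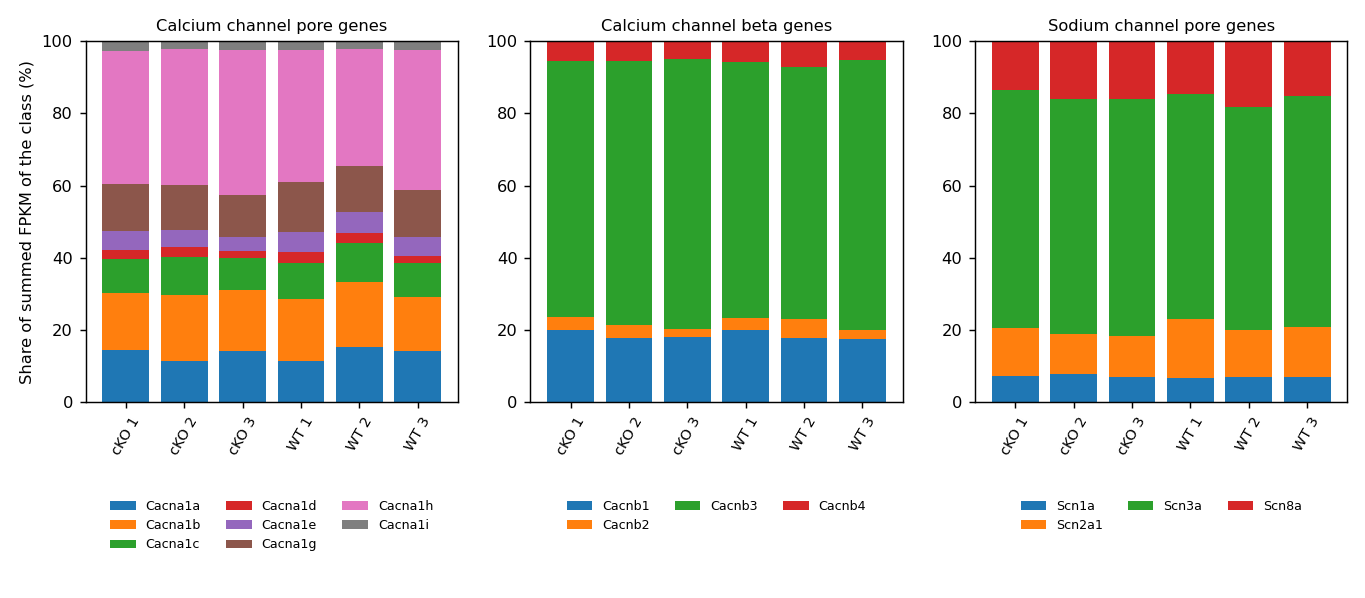
Share of each gene in the summed FPKM of its class, in percent, for calcium channel pore genes, calcium channel beta genes and sodium channel pore genes, with a bar for each of the 3 CCP1 cKO (left) and 3 CCP1 WT (right) libraries. Cacna1h takes 32.5% to 40.2% of the first class, Cacnb3 70.1% to 74.8% of the second and Scn3a 61.7% to 66.1% of the third.

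Among the 11 potassium channel pore genes, Kcnd3 was the most abundant. It encodes an A-type channel, which gives a fast transient current that delays firing. Kcnd3 had 14.5, 14.9 and 16.3 FPKM among CCP1 cKO libraries, compared with 15.4, 15.1 and 14.9 FPKM among CCP1 WT libraries. Its 6 libraries were the least variable of the 35 genes, with a coefficient of variation of 4.07%. Kcnh2, the ERG channel that also repolarizes the heart, had 7.07, 6.85 and 9.30 FPKM among CCP1 cKO libraries, compared with 8.65, 6.53 and 6.53 FPKM among CCP1 WT libraries. Kcnc1, a channel of the family that lets mature interneurons fire fast, had 6.53, 7.24 and 6.77 FPKM among CCP1 cKO libraries, compared with 8.34, 8.96 and 6.90 FPKM among CCP1 WT libraries. Kcnh2 and Kcnc1 did not differ beyond their spread, since each was higher in 3 of 6 libraries. Kcnc2, of the same family as Kcnc1, had 2.75, 3.62 and 2.58 FPKM among CCP1 cKO libraries, compared with 3.41, 3.94 and 3.66 FPKM among CCP1 WT libraries, and only CCP1 cKO replicate 2 reached the WT range. Kcnh7, another ERG gene, lay between 4.54 and 6.10 FPKM for CCP1 cKO and between 4.30 and 6.99 FPKM for CCP1 WT. Kcnd2, the second A-type gene, lay between 4.39 and 5.36 FPKM for CCP1 cKO and between 5.06 and 6.07 FPKM for CCP1 WT. Kcnq3, a subunit of the M-current, lay between 2.66 and 3.49 FPKM and between 3.08 and 4.81 FPKM, and Kcnb2, a delayed rectifier, between 1.49 and 1.58 FPKM and between 1.103 and 1.88 FPKM, in the same order of genotypes.

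The 3 channel genes below 1 FPKM were potassium channels too. Kcna2, an axonal delayed rectifier, had 0.484, 0.436 and 0.421 FPKM among CCP1 cKO libraries, compared with 0.531, 0.597 and 0.509 FPKM among CCP1 WT libraries (exact permutation test, two-sided, p = 0.1, and 3 libraries against 3 allow no smaller p). Kcnq5, the other M-current gene of the set, had 0.266, 0.3155 and 0.201 FPKM among CCP1 cKO libraries, compared with 0.467, 0.374 and 0.3160 FPKM among CCP1 WT libraries (exact permutation test, p = 0.1). The genotypes did not overlap at either gene, though at Kcnq5 they were separated only in the fourth digit. Each CCP1 cKO library lay below each WT library at 5.81% of the 13200 tested loci. The share among loci below 1 FPKM was not computed. Kcna1, the partner of Kcna2 in juxtaparanodal channels, had between 0.0961 and 0.111 FPKM for CCP1 cKO and between 0.102 and 0.181 FPKM for CCP1 WT (exact permutation test, p = 0.3). Values this low rest on few fragments.

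HCN channels, which carry an inward current on hyperpolarization, were led by Hcn3. It stood at 14.7, 15.6 and 17.1 FPKM among CCP1 cKO libraries, compared with 13.7, 14.6 and 16.9 FPKM among CCP1 WT libraries. Hcn4, the pacemaker channel of the heart, had 8.07, 9.01 and 10.3 FPKM among CCP1 cKO libraries, compared with 7.95, 8.35 and 7.83 FPKM among CCP1 WT libraries, where only CCP1 cKO replicate 1 reached into the WT range. Hcn3 exceeded Hcn4 between 1.66 and 2.16 times, in 6 of 6 libraries. Hcn2 had 1.095 ± 0.109 FPKM for CCP1 cKO and 1.202 ± 0.336 FPKM for CCP1 WT (SD, n = 3 each). The span that the authors' table gives for Hcn2, on chromosome 10 from 79697305 to 80369637, is shared by 67 loci, so overlapping genes may share fragments there. Some other channel genes also have a shared span, among them Cacna1c (6 loci), Cacna1d (4 loci), Cacnb1 and Scn2b (3 loci each).

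None of the 32 tested channel genes passed between CCP1 cKO and CCP1 WT. Of the 13200 loci tested by limma on log2(FPKM + 1), 12 (0.0909%) passed a Benjamini-Hochberg adjusted p of 0.05, and of the 32 channel genes 0 did, with adjusted p from 0.976 upwards. At an unadjusted p under 0.05 there was 1 channel gene, Scn2a1, and 4.62% of all loci. The log2 fold change of Scn2a1 was -0.27 (standard error 0.11, 95% interval -0.54 to -0.00078, adjusted p = 0.976 by limma). It was negative under each of 15 alternatives, from -0.35 to -0.20, with adjusted p between 0.711 and 0.99999. The next smallest p belonged to Cacna2d2, Cacna1e, Kcnc1, Cacna1g and Kcnc2, all with negative log2 fold changes, namely -0.17, -0.28, -0.20, -0.19 and -0.24, standard errors between 0.08 and 0.13, and the same adjusted p of 0.976 by limma. Of Cacna1g, which belongs to these, the libraries had 6.93, 7.89 and 7.59 FPKM among CCP1 cKO libraries, compared with 9.09, 9.32 and 7.59 FPKM among CCP1 WT libraries, so that CCP1 WT replicate 3 lay within the CCP1 cKO range.

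Cacna1e was the only tested channel gene at which the genotypes did not overlap. It had 2.82, 2.95246 and 2.64 FPKM among CCP1 cKO libraries, compared with 3.51, 4.46 and 2.95272 FPKM among CCP1 WT libraries, separated only in the fifth digit between CCP1 cKO replicate 2 and CCP1 WT replicate 3. Over all tested loci, 5.81% had each CCP1 cKO library below each CCP1 WT library and 3.98% the opposite, so 1 of 32 in the first pattern and 0 of 32 in the second is near or below the background. Leaving out CCP1 WT replicate 2, 2 channel genes had each CCP1 cKO library below the WT libraries (9.85% of all loci) and 2 above (6.98%).

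The tested channel genes had 95% intervals that lay within -0.78 and 0.66 on the log2 scale, and 24 of the 32 had an interval inside -0.5 to 0.5. Cacnb3 had a log2 fold change of 0.01 (95% interval -0.15 to 0.17), Scn3a 0.02 (-0.16 to 0.20), Kcnd3 0.01 (-0.15 to 0.16) and Cacna1h -0.02 (-0.26 to 0.23). The widest interval was that of Cacna2d1 (-0.78 to 0.66). Changes inside these intervals remain possible. The added 1 understates the change of genes near 1 FPKM.

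**Figure D3:**
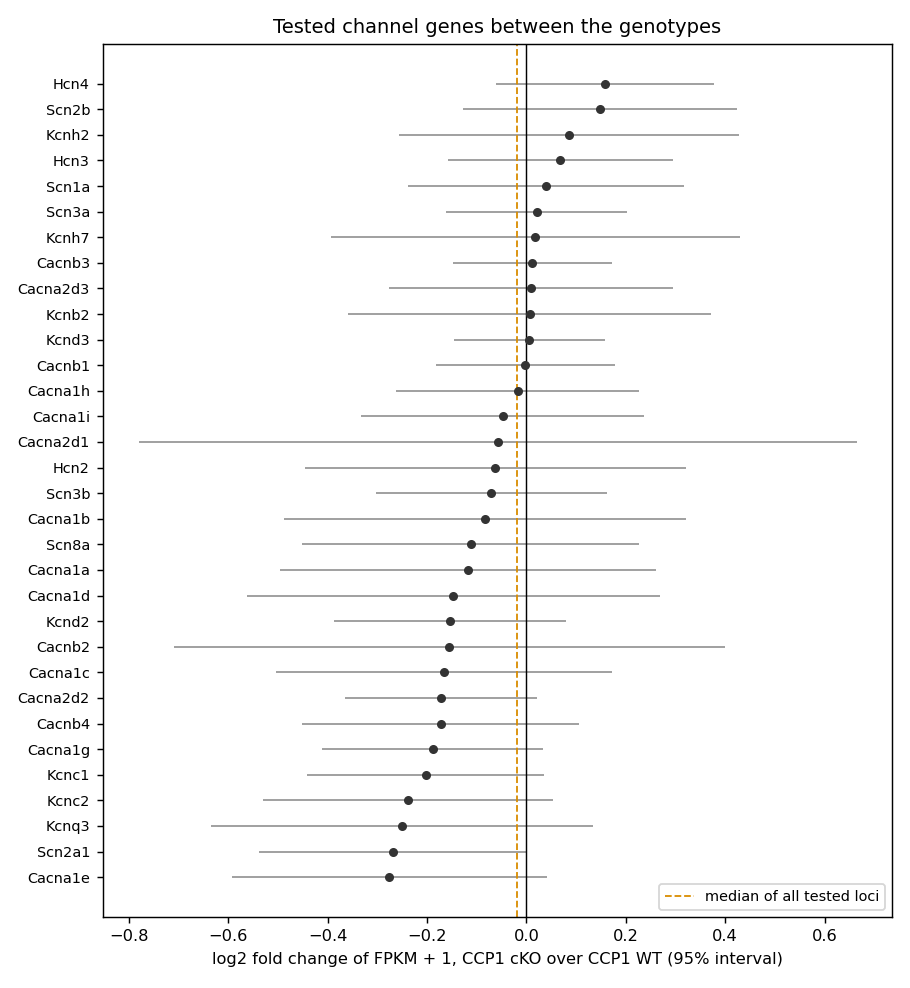
Log2 fold change of FPKM + 1 in CCP1 cKO over CCP1 WT for the 32 tested channel genes, with 95% intervals from limma, a solid line at 0 and a dashed line at the median of all tested loci (-0.02). Points run from -0.28 for Cacna1e to 0.16 for Hcn4, and the interval of Scn2a1 alone stops short of 0.

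The fold change was below 0 at 21 of the 32 channel genes, against 56.6% of all tested loci, with a median of -0.07 for the channel genes and -0.02 for all loci. The count and the median depended on which CCP1 WT libraries were in the fit. Without CCP1 WT replicate 2 the median of the channel genes was 0.0046 and 14 of 32 were below 0, and without CCP1 WT replicate 3 the median was -0.14 and 26 of 32 were below 0. These libraries also stood at the 2 ends for the cortical excitatory markers, whose sum was highest in CCP1 WT replicate 2 (45.5 FPKM) and lowest in CCP1 WT replicate 3 (11.3 FPKM), and the part of such cells in the channel values was not tested. By class, the summed FPKM in CCP1 cKO was 92.3% of that in CCP1 WT for calcium channel pore genes, 92.7% for alpha2delta genes, 99.2% for beta genes, 96.3% for sodium channel pore genes, 96.8% for sodium channel beta genes, 94.1% for potassium channel pore genes and 107.1% for HCN genes, and the libraries of the genotypes overlapped in each class.

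Channel genes are long, and the libraries differed by gene length. The annotated span of the 35 genes ran from 5.99 kb for Kcna1 to 816.9 kb for Cacna2d3, with a median of 159.3 kb, against a median of 25.9 kb over the 11087 tested loci with an annotated span, and 22 of the 35 (62.9%) exceeded 100 kb, against 15.6% of those loci. CCP1 WT replicate 2 was the highest of the 6 libraries at 19 of the 35 channel genes and at 28.7% of the tested loci with a span. Above 100 kb it was highest at 15 of the 22 channel genes and at 46.8% of the 1730 loci, and CCP1 WT replicate 1 at 6 channel genes and 22.0% of loci. Of the 13 channel genes of 100 kb or less, CCP1 cKO replicate 3 was highest at 6, among them Cacna1h, Hcn3, Hcn4 and Kcnh2, and at 9.87% of such loci. Over all tested loci with a span above 300 kb, the median deviation from the mean of the 6 libraries was 0.00, -0.01 and -0.10 on the log2 scale in CCP1 cKO replicates 1, 2 and 3 and 0.07, 0.12 and -0.07 in CCP1 WT replicates 1, 2 and 3. Below 10 kb it was 0.06, -0.01 and -0.01 in CCP1 cKO and 0.02, -0.10 and 0.03 in CCP1 WT. CCP1 WT replicate 2 was thus the highest library at the longest genes and the lowest at the shortest, while CCP1 WT replicate 3 was low at the longest genes. Why the libraries differ by gene span was not tested. With the span trend of each library removed, an alternative chosen after this pattern was seen, the median log2 fold change of the channel genes was -0.04, 17 of 32 were below 0, and 0 passed or had an unadjusted p under 0.05.

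**Figure D4:**
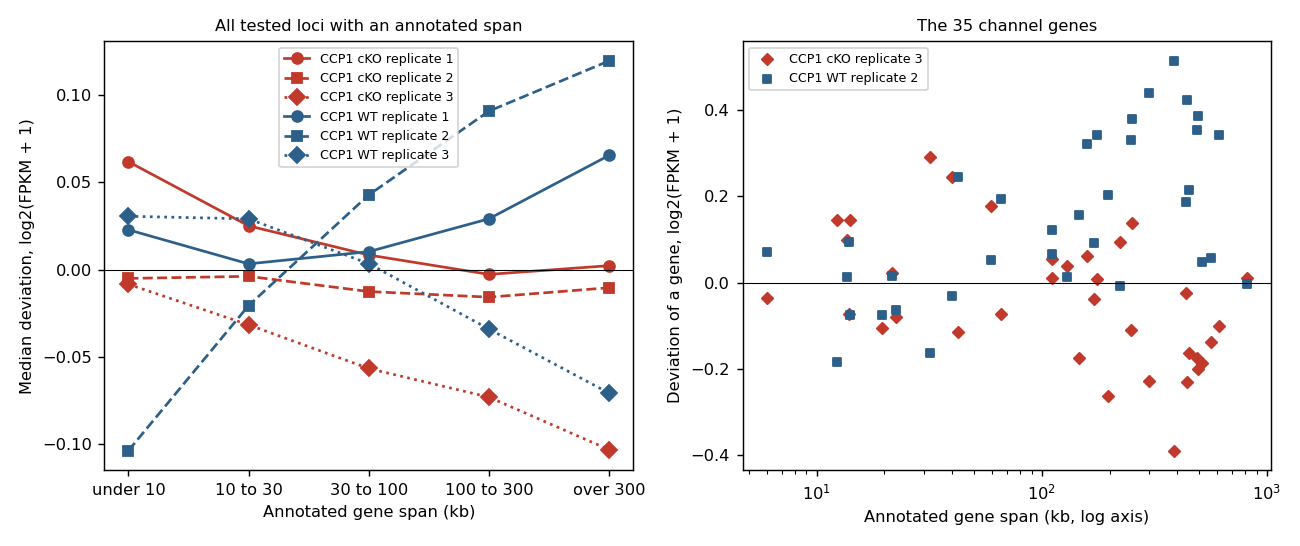
Left, median deviation of each library from the mean of the 6 libraries, in log2(FPKM + 1), by annotated gene span in kb over all tested loci with a span, with CCP1 cKO replicates in red and CCP1 WT replicates in blue. Right, the same deviation of the 35 channel genes against gene span on a log axis in CCP1 cKO replicate 3 and CCP1 WT replicate 2, whose points mostly part above 100 kb, where CCP1 WT replicate 2 was highest at 15 of 22 genes.

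Of 50 further calcium, sodium, potassium and HCN channel subunits, 18 were tested, limma called 0, and 2 had an unadjusted p under 0.05. One was Cacng4, one of the gamma subunits that mostly serve AMPA receptors and the highest of these 50 genes, with 38.4, 37.9 and 39.1 FPKM among CCP1 cKO libraries, compared with 42.0, 42.5 and 43.2 FPKM among CCP1 WT libraries (log2 fold change -0.14, adjusted p = 0.976 by limma). The other was Kcns2, a silent potassium channel subunit, with 0.897, 1.05 and 0.771 FPKM among CCP1 cKO libraries, compared with 1.25, 1.47 and 1.52 FPKM among CCP1 WT libraries (-0.34, adjusted p = 0.976). At both genes each CCP1 cKO library was below each WT library. Over all tested loci, 4.62% had an unadjusted p under 0.05 and 5.81% had each CCP1 cKO library below each WT library.

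Of 13 auxiliary subunits of potassium channels, 7 were tested, 0 passed and 1 had an unadjusted p under 0.05. This was Dpp10, a membrane protein that assembles with A-type channels such as those of Kcnd2 and Kcnd3. Dpp10 had 2.98, 2.86 and 2.56 FPKM among CCP1 cKO libraries, compared with 5.07, 3.99 and 4.43 FPKM among CCP1 WT libraries. Each CCP1 cKO library was below each WT library, as at 2 of the 7 tested genes of the list and at 5.81% of all loci. Its log2 fold change was -0.53 (standard error 0.11, unadjusted p = 0.00162, adjusted p = 0.333 by limma), and under 14 alternatives it stayed between -0.66 and -0.46 with adjusted p between 0.137 and 0.99999. Dpp6, its paralog and the most abundant of this list, averaged 13.9 FPKM over the 6 libraries.

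A list of ankyrins, beta-spectrins, Nfasc and Fgf11 to Fgf14, not all of them anchors at the axon initial segment, was measured at 9 of 9 genes. Of these, 0 passed or had an unadjusted p under 0.05 by limma. All 9 had a log2 fold change below 0, against 56.6% of all loci, with a median of -0.15. CCP1 WT replicate 2 was the highest library at 6 of the 9, and how far the count rests on that library was not tested. The beta-spectrin Sptbn1 (Spnb2 in the table) had 34.67, 33.0 and 31.5 FPKM among CCP1 cKO libraries, compared with 37.3, 43.9 and 34.71 FPKM among CCP1 WT libraries. Ank2, an ankyrin of the axon, had 30.4, 31.02 and 25.04 FPKM among CCP1 cKO libraries, compared with 31.9, 38.3 and 32.1 FPKM among CCP1 WT libraries. The genotypes did not overlap at these genes, 2 of the 9 (5.81% of all loci). Ank3, the ankyrin that organizes the axon initial segment, had 22.4, 24.2 and 23.0 FPKM among CCP1 cKO libraries, compared with 27.7, 33.2 and 21.6 FPKM among CCP1 WT libraries. CCP1 WT replicate 2 was the highest library at all 3. Of 16 genes of calcium release and calmodulin, 10 were tested, limma called 0 and 1 had an unadjusted p under 0.05, the endoplasmic reticulum calcium pump gene Atp2a2, with 68.3, 60.1 and 60.9 FPKM among CCP1 cKO libraries, compared with 68.3, 76.7 and 71.6 FPKM among CCP1 WT libraries (log2 fold change -0.19, adjusted p = 0.976). Of 12 genes of neuronal maturation, 12 were tested, 0 passed and 0 had an unadjusted p under 0.05. At 10 of them the log2 fold change was below 0 (56.6% of all loci), and CCP1 WT replicate 2 was the highest library at 6. Dcx, a microtubule protein of migrating neurons, had 152.0, 145.8 and 133.9 FPKM among CCP1 cKO libraries, compared with 151.9, 210.8 and 157.0 FPKM among CCP1 WT libraries.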

How the data were processed

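RNA was sequenced from 6 libraries of GFP-sorted cells of E13.5 GEs (3 CCP1 cKO, 3 CCP1 WT). The authors aligned reads with Bowtie2 in the Tuxedo workflow and deposited FPKM per library at 29606 loci, made with Cuffdiff, and the submitters' processing notes name mm10 and bcl2fastq. Their versions and the annotation were not given in the sources used here. A table of isoforms and the authors' own fold changes, p-values and q-values, which hold their comparison and group means, were not used.

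Each gene was read at the longest locus carrying its symbol. Cacna1c, Cacna1d and Cacnb3 occurred on several loci of equal span, and the one on the strand annotated in GENCODE M21 was taken. The strand was taken from locus numbers, which matched the annotation at 99.9% of 20813 loci. Genotypes were compared with limma 3.58.1 in R 4.3.3 (lmFit, then trended eBayes) on log2(FPKM + 1). The fit held the 13200 loci averaging 1 FPKM or more, and p-values were adjusted over all 13200 by Benjamini and Hochberg's method. The 3 channel genes below the filter were compared with exact permutation tests, and other loci below it were not compared. The procedure was tested on simulated data. Depth is known only in relative terms. Gene span was taken from GENCODE M21, and its trend per library was fitted by lowess (statsmodels 0.14.6). Tables, exact tests and plots were made in Python 3.11.15 with NumPy 2.4.6, pandas 2.3.3, Matplotlib 3.10.9 and SciPy 1.17.1.

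Values in each library were given for the 2 highest genes of a class, the 6 genes with the smallest p and those whose genotypes did not overlap, and fold changes with standard errors for those 6. A few further values were chosen after they were seen. The members and lists were chosen with earlier results of these data known. The study describes the libraries as embryos of independent female donors. Alternatives covered each library left out, library weights, a replicate block, an untrended prior, quantile normalization, equal medians, added constants of 0.1 and 0.5, a filter at 5 FPKM or none, TPM, other limits for expressed genes and the other locus of a symbol. Values of some genes of the wider channel families are not reported here.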

Additional observations from a re-analysis of the deposited data

How the results depend on the processing

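In each of the 16 alternatives, 0 of the channel genes tested passed an adjusted p of 0.05, and the log2 fold changes of the 6 channel genes with the smallest p kept their sign wherever they were tested, which leaves out Scn2a1, Cacna1e and Kcnc2 at the filter of 5 FPKM. The count of loci called, 12 in the comparison as reported, was 24 with library weights, 2 with the gene span trend removed (chosen after seeing the data, over 11087 loci) and between 5 and 16 with a library left out, the lowest without CCP1 cKO replicate 3. Channel genes at an unadjusted p under 0.05 numbered between 0 and 5, the highest without CCP1 WT replicate 3. The labels number the replicates without saying what a number shares. Deviations of same-numbered libraries correlated at 0.32, 0.11 and 0.04, and those of differently numbered libraries between -0.26 and 0.17. These few correlations cannot decide whether the numbers pair the libraries. With the replicate block 16 loci were called by limma, with 3 channel genes at an unadjusted p under 0.05 and a smallest adjusted p of 0.711. With a library left out, the summed FPKM of CCP1 cKO as a share of CCP1 WT ranged from 86.9% to 99.2% for alpha2delta genes and 91.2% to 102.0% for sodium channel pore genes. It ranged from 93.2% to 103.3% for sodium channel beta genes and 89.9% to 97.3% for potassium channel pore genes. For calcium channel pore genes the range was 87.2% to 98.8%, for calcium channel beta genes 97.2% to 101.2% and for HCN genes 102.2% to 111.8%. The sums of both sodium channel classes and of the calcium channel beta genes thus crossed 100%. With the other locus of Cacnb3, which held 1.59% of the sum, the share was 95.05% for calcium channel beta genes. With limits of 0.5 and 2 FPKM, 32 and 26 of the 35 channel genes counted as expressed. Without an absolute depth, counting intervals could not be computed, and genes below 1 FPKM bound no change.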

Other observations

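The symbols of 3 channel genes were also carried by loci of the same span that the numbering of loci puts on the strand opposite to the gene. Of the 3 such loci of Cacna1c, all lay between 0.586 and 2.44 FPKM for CCP1 cKO and between 1.097 and 2.81 FPKM for CCP1 WT, below Cacna1c itself in each library. The one at Cacna1d had 1.22, 2.89 and 1.93 FPKM among CCP1 cKO libraries, compared with 1.12, 3.25 and 0.680 FPKM among CCP1 WT libraries, and so exceeded Cacna1d itself, at 1.34, 1.67 and 1.28 FPKM and 2.05, 1.96 and 1.15 FPKM, in replicates 2 and 3 of CCP1 cKO and in replicate 2 of CCP1 WT. The one at Cacnb3 had 0.331, 0.369 and 0.538 FPKM among CCP1 cKO libraries, compared with 0.154, 0.734 and 0.313 FPKM among CCP1 WT libraries.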
